A study of Mus musculus with 4 samples.

Results

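The EGF receptor family comprises 4 receptor tyrosine kinases, encoded by Egfr, Erbb2, Erbb3 and Erbb4. They were examined together with Areg and Ereg, which encode the ligands amphiregulin and epiregulin, and with Lrig1, which encodes a transmembrane protein that restrains the receptors. Open chromatin was read from ATAC-seq peak lists, in which Tn5 transposase marks accessible DNA. Overlapping peaks of the 4 lists were merged into 119965 regions, and 222 of these lay in or within 100 kb of the 7 genes. Mouse crypt stem cells gave the libraries, 2 from small intestine (SISC) and 2 from large intestine (LISC), sorted for EGFP driven by the Lgr5 locus. All mice carried the Lgr5-EGFP-IRES-creERT2 allele, were untreated and were 6 to 12 weeks old. CD24-positive cells were gated out for SISC, whereas no CD24 gate is named for LISC, so tissue and gate cannot be told apart here. The labels do not say whether libraries within a group are different animals, so the spread between them may be partly technical.

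Ligand binding to an EGF family receptor drives receptor pairing, and the paired kinases signal through RAS-MAPK and PI3K. Erbb2 has no known soluble ligand and Erbb3 has a weak kinase, so both act mainly as partners. Erbb4 binds neuregulins as well as some EGF-type ligands. In the intestinal crypt, EGF signalling is known to sustain stem cell division, and Lrig1 is known both as a brake on it and as a stem cell marker.

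All 7 genes had an open region within 1 kb of a start site in each of the 4 libraries, as did 62.1% of protein-coding genes. For Erbb3 and Ereg either gene end stood in for the start. With each peak cut to a window around its summit, 6 of the 7 genes had such a region. None of the 7 had a start site open in SISC or in LISC alone, which was the case for 1.28% and 0.621% of genes. Regions with a peak in each SISC list and in neither LISC list are termed SISC-only, and the converse LISC-only. Of the 222 regions, 114 (51.4%) were called in all 4 libraries, 5 (2.25%) were SISC-only and 22 (9.91%) were LISC-only. Over all regions of the series these shares were 48.2%, 7.96% and 10.2%, and over the 111842 regions in or within 100 kb of any protein-coding gene 49.3%, 7.86% and 9.4%. The LISC-only share of the member loci was thus close to that of the series, and the SISC-only share lay below it. The LISC-only regions lay mainly at Egfr, with 8, and Erbb4, with 5, and the SISC-only regions were spread over 4 places with at most 2 at a gene. Both counts moved with the libraries and the peak threshold, as did those of the series. With SISC replicate 1 left out there were 18 SISC-only regions, with SISC replicate 2 left out 10, and with LISC replicates 1 and 2 left out in turn 14 and 10. LISC-only regions numbered 34 when either LISC library was left out and 26 and 31 without SISC replicates 1 and 2, whereas the top 41721 peaks per list gave 9 SISC-only and 6 LISC-only regions. In those top lists the member shares were 8.74% SISC-only and 5.83% LISC-only, beside 8.48% and 9.8% in the series, so the order of member and series shares depended on the threshold. With 1 library left out the member SISC-only share was 4.61% to 8.22%, beside 10.5% to 17.7% in the series. With 2 libraries against 2, no exact test over libraries can give a p below 0.333, so differences are described without a test.

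By library, 146 and 164 of the 222 regions were called in SISC replicates 1 and 2, and 177 and 170 in LISC replicates 1 and 2. Both LISC libraries thus held more member regions than either SISC library. Over the whole series the same counts were 78033, 91060, 86171 and 85723, where the groups overlapped. Compared within a replicate number, 16 regions were called in SISC replicate 1 but not LISC replicate 1, and 47 the other way round. In the replicate 2 libraries these counts were 33 and 39. Over the series they were 15199 and 23337 for replicate 1 and 25242 and 19905 for replicate 2, so an excess of LISC replicate 1 calls was also present in the whole lists.

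**Figure D1:**
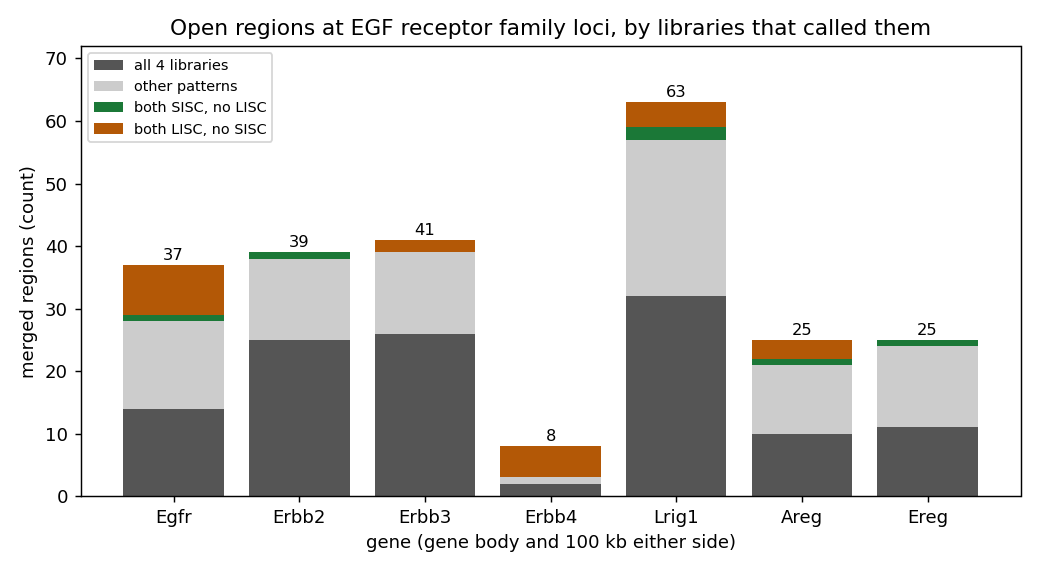
Number of merged regions (y axis) in the gene body and 100 kb either side of each gene (x axis), stacked by the libraries that called them, with the total above each bar. Lrig1 has the most regions, 63, and Erbb4 the fewest, 8, of which 5 were called in both LISC libraries alone; Areg and Ereg share 16 regions.

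The lists held 83443 to 93220 peaks covering 49.9 to 63.3 Mb, with a median fold enrichment of 4.38 to 5.76, lowest in LISC replicate 2; read depth is unknown. Start sites of 6 of 6 epithelial genes, such as Epcam and Vil1, were called in every library, as were those of Lgr5, Ascl2, Smoc2, Axin2 and Rnf43. The sixth stem cell gene, Olfm4, was called in SISC alone. Of 3 small intestine genes, Gata4 and Fabp1 were called in SISC alone and Onecut2 in all 4 libraries. Among large intestine genes, Car1 was called in LISC alone and Slc26a3 in all 4 libraries. The start of Cd24a, the gene of the sorting antigen, was called in every library. So were those of all 3 goblet and deep crypt secretory genes, Reg4, Muc2 and Kit. Of 3 Paneth cell genes, Mmp7 was called in all 4 libraries, Lyz1 in all but LISC replicate 1 and Defa24 in none. Start sites of 6 immune genes, among them Ptprc and Cd3e, were called in no library. Of 7 stromal, endothelial, muscle and glial genes, 5 and 4 were called in SISC replicates 1 and 2 and 4 and 2 in LISC replicates 1 and 2, with Pecam1 and Cdh5 called in none. The part of secretory and stromal cells in the member counts was not tested.

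To compare regions across lists of unequal length, each region called in all 4 libraries was ranked by its highest −log10 q within each library, among the 57829 such regions. The result is a percentile, and it describes order within a library, not the amount of open chromatin. Of the 114 member regions called in all 4 libraries, 36 ranked higher in both SISC libraries than in both LISC libraries, and 26 showed the reverse. Over the series 30.4% of shared regions ranked higher in both SISC libraries and 25.4% in both LISC libraries. The member counts of 36 and 26 thus stood near the level of the series. Differences between SISC and LISC are described below for single regions.

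The 3 start sites below span the range of ranks and are shown for that reason. Each is the 250 bases upstream of the RefSeq start (GRCm38.p6), 5′ to 3′ on the gene's strand, with motif matches in capitals: Lrig1 at chr6:94700146-94700395 (minus strand), Areg at chr5:91139349-91139598 (plus strand) and Erbb4 at chr1:69108060-69108309 (minus strand).
Lrig1: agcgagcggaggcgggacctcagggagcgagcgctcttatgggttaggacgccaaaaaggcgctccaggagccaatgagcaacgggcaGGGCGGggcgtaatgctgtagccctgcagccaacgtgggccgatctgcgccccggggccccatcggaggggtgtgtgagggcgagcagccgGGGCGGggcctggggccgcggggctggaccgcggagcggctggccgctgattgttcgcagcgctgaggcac
Areg: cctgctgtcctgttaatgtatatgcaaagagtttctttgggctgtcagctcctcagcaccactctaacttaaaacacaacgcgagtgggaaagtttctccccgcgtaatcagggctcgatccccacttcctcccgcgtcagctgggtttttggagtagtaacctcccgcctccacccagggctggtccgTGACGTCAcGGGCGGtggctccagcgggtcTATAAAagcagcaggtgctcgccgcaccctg
Erbb4: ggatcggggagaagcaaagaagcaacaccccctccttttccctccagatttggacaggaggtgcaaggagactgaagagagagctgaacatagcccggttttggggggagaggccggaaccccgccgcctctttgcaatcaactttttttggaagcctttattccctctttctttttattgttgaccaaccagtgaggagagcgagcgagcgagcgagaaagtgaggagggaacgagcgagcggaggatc
Matches were sought on both strands. The letters were TGANTCA for AP-1, CTTTGA for TCF/LEF factors, TTTATG for CDX factors and AGATAA for GATA factors. For the GC box they were GGGCGG, for HNF4 factors CAAAGTCCA, for the E-box CACGTG, for the TATA box TATAAA and for the cyclic AMP response element TGACGTCA. The last was added after the sequences were seen. The capitals in Lrig1 are 2 GC boxes, a motif held by 42.6% of 21262 such windows. Those in Areg are, from the left, the cyclic AMP response element (1.92% of windows), a GC box and the TATA box (11.6%), whose first bases lie at -61, -52 and -31 from the start. Erbb4 and Erbb2 held none of the motifs, and Egfr held 1 GC box at -9. None of the 5 windows held the AP-1, TCF/LEF, CDX, GATA, HNF4 or E-box letters, which were present in 6.13%, 12.7%, 8.95%, 8.81%, 0.39% and 6.63% of windows. GC content was 71.6% in Lrig1, 66% in Erbb2, 60.8% in Egfr, 57.2% in Areg and 54% in Erbb4, beside a median of 55.6%.

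The Lrig1 start-site region (chr6:94699390-94700595) stood at the 97.0 and 95.2 percentile in SISC replicates 1 and 2 and at 98.3 and 95.9 in LISC replicates 1 and 2, the highest of the start sites covered in the 7 genes. The Areg start-site region (chr5:91138986-91140110) stood at 84.3, 87.7, 87.0 and 82.7 in the same library order. Its summit lay within 40 bp of the start in each library, at -29, -36, 7 and 7. The groups overlapped at both genes. Egfr (chr11:16751655-16753492) stood at 77.9, 80.1, 80.0 and 84.8, also with overlapping groups. The region over the upper end of Erbb3 (chr10:128588776-128590720) stood at 81.7, 76.1, 83.6 and 70.9, so here too the groups overlapped.

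At 3 genes the groups did not overlap. Erbb2 (chr11:98412159-98413433) stood at 88.3 and 87.4 in SISC and at 81.9 and 66.5 in LISC, with a −log10 q of 286, 234, 213 and 74.2. The region over the lower end of Ereg (chr5:91074354-91077014) stood at 54.4 and 53.5 in SISC and at 65.0 and 60.2 in LISC. This region was 2661 bp wide, and its summits lay 1482 to 1591 bp from that end. Erbb4 (chr1:69106067-69108307) was lowest, at 3.30 and 8.004 in SISC and 12.1 and 15.9 in LISC, with a −log10 q of 8.004, 14.7, 16.5 and 15.2. Its summits lay apart, at 116, 1010, 802 and 1720 bp from the start in the same library order. A second region near the Erbb4 start (chr1:69108472-69108773) was called only in SISC replicate 1 and LISC replicate 2, with a −log10 q of 15.5 and 4.86. Ranked by fold enrichment, 1 of the 2 Erbb4 regions called in all 4 libraries stayed higher in both LISC libraries. Whether the split at the Erbb4 start depends on how peaks were merged was not tested. Such a split in either direction is common, since 55.8% of all shared regions had groups that did not overlap.

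**Figure D2:**
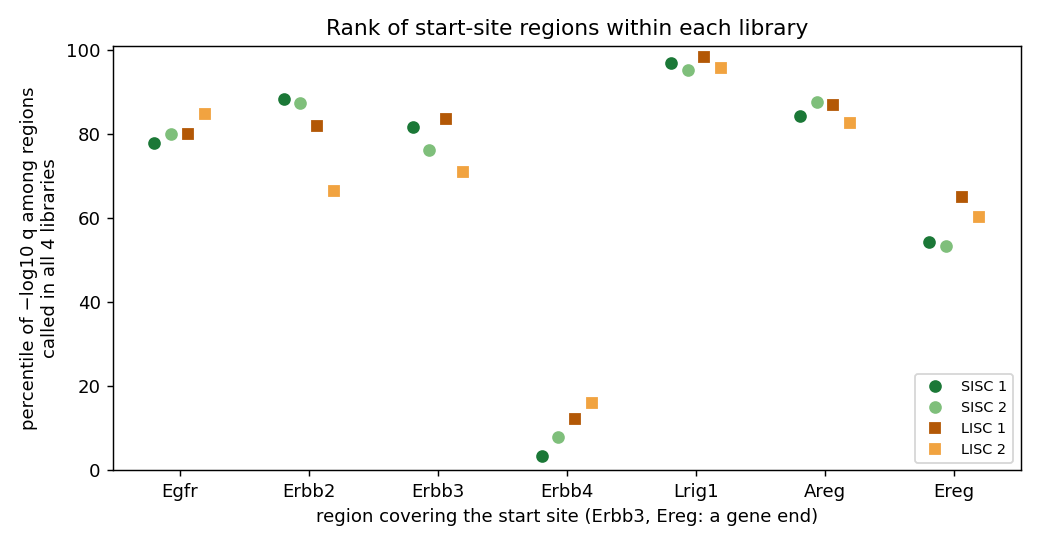
Percentile of −log10 q (y axis) of the region covering the start site of each gene (x axis; a gene end for Erbb3 and Ereg) among regions called in all 4 libraries, 1 point per library. Lrig1 lies above 95 in every library and Erbb4 below 16; SISC and LISC points are separate at Erbb2, Erbb4 and Ereg.

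Among the receptors, Egfr, which binds EGF, amphiregulin and other ligands, had 37 regions (gene at chr11:16752203-16913907). Of these, 14 were called in all 4 libraries, 8 were LISC-only and 1 was SISC-only, where 1.19% of protein-coding genes had at least as many LISC-only regions; its gene is longer than most, with 5.98% at least as long. By library, 18 and 23 regions were called in SISC and 28 and 29 in LISC. Egfr was the nearest gene for 14 of the 37 regions. By nearest start, the count of SISC-only minus LISC-only regions at Egfr was -3, against -7 for the whole window. The LISC-only regions were scattered from 50.1 kb upstream of the start to 237 kb downstream of it, and 2 of them lay in the gene body. They were mostly weak. The strongest (chr11:16701741-16702124) had a −log10 q of 24.3 and 19.3, at the 60.6 and 63.6 percentile among LISC-only regions, and the weakest by replicate 1 (chr11:16735272-16735641) had 5.07 and 10.7. None was left among the strongest peaks, where Egfr had 2 SISC-only and 0 LISC-only regions, so the lean of Egfr to LISC was turned by the peak threshold. Without a single library, LISC-only regions at Egfr numbered 8 to 12 and SISC-only regions 1 to 4.

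Shared regions at Egfr went in both directions. A region 47.7 kb inside the gene (chr11:16799947-16801130) was the highest-ranking within its body, at 90.1, 90.7, 90.5 and 89.0 in SISC replicates 1 and 2 and LISC replicates 1 and 2, with nearly equal ranks in the tissues. Upstream, a region 14.2 kb before the start (chr11:16737032-16738001) stood at 15.1 and 38.6 in SISC and at 59.8 and 70.7 in LISC, with a fold enrichment over local background of 5.16, 7.07, 9.11 and 8.29. Near the 3′ end, the region at chr11:16907412-16908339 did the reverse, at 44.2 and 45.6 in SISC and 1.16 and 21.2 in LISC. The highest rank in the window belonged to the start of the neighbouring gene Fbxo48, at 97.9 to 99.6.

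Erbb4 was the emptiest of the loci. Over a gene of 1077 kb (chr1:68031884-69108576), 8 regions were called, or 0.627 per 100 kb of window, against 10.2 to 21.3 at the other 6 genes. All 8 lay in the gene body, and no other protein-coding gene shared the window. SISC replicates 1 and 2 called 3 and 2 of them and LISC replicates 1 and 2 called 7 and 8. This split mostly restates that 5 of the 8 were LISC-only. How many other genes split this way was not counted. Among 226 genes of at least 500 kb, the median was 15 regions, and 35.0% had 8 or fewer, so a sparse long gene is not unusual in these lists.

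The 5 LISC-only regions of Erbb4 lay 387 to 641 kb downstream of the start, inside the gene. The strongest (chr1:68674586-68674988) had a −log10 q of 74.3 and 47.0 in LISC and a fold enrichment of 11.6 and 7.55, at the 91.4 and 91.5 percentile among all LISC-only regions. A cluster around 564 kb from the start held the next. There every library called chr1:68542794-68543525, at a −log10 q of 93.1 and 45.4 in SISC and 286 and 155 in LISC. It stood at the 62.3 and 36.3 percentile in SISC and at 88.1 and 87.3 in LISC, a difference in means of -38.3 points (SISC minus LISC). Its neighbour chr1:68543819-68544142 was called in LISC alone, with 49.7 and 18.2. By fold enrichment both tissues showed the shared region clearly, at 14.0, 8.08, 19.1 and 13.1. At equal list lengths there were 4 LISC-only regions and among the strongest peaks 1. Of 226 long genes, 33.6% had 5 or more LISC-only regions.

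**Figure D3:**
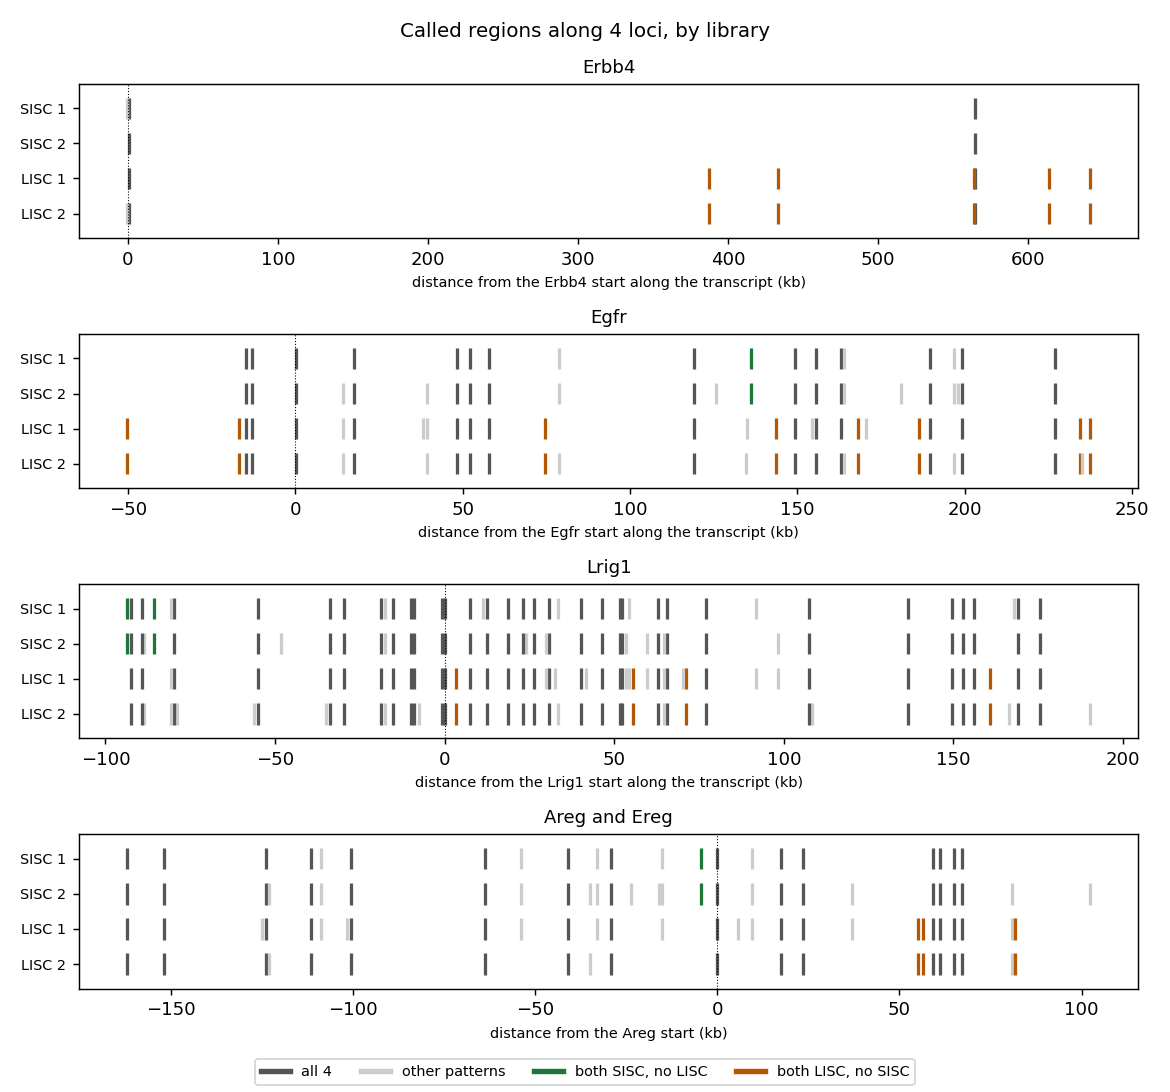
Called regions (ticks) in each library (rows) against distance from the start site in kb (x axis; the axes differ in length) at Erbb4, Egfr, Lrig1 and the joined Areg and Ereg windows, coloured by the libraries that called them. At Erbb4 the LISC-only ticks lie between 387 and 641 kb from the start, and at Lrig1 ticks called in all 4 libraries fill the gene and its upstream flank.

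Erbb2, the co-receptor, had 39 regions in a gene-dense window shared with 10 other protein-coding genes (gene at chr11:98412484-98437716). Every library called 25 of these. A single region, 1, was SISC-only, and there were 0 LISC-only regions. The SISC-only region lay at the start of Pnmt, a neighbour, and was weak, with a −log10 q of 5.31 and 8.52. All 6 regions in the body of Erbb2 were called in all 4 libraries. Downstream of the start-site region, which ranked higher in SISC, 3 of these body regions ranked higher in both LISC libraries. Of them, chr11:98417147-98417767, 4.66 kb from the start, stood at 30.2 and 5.97 in SISC and 60.2 and 51.4 in LISC. A second, chr11:98427773-98429003, stood at 53.8 and 32.1 against 72.5 and 76.1. Ranked by fold enrichment, 2 body regions were higher in SISC and 2 in LISC.

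Erbb3, the neuregulin receptor with a weak kinase, had 41 regions, 26 of them in all 4 libraries, 2 LISC-only and none SISC-only (gene at chr10:128567523-128589635, with 11 other genes in the window). The body held 4 regions, all called in every library, at the 58.6 to 81.7 percentile in SISC replicate 1. Beyond the upper end of the gene by 8.79 kb, the region chr10:128598426-128598933 stood at 55.4 and 51.3 in SISC and 13.7 and 22.6 in LISC, with a −log10 q of 74.2, 69.2, 18.0 and 19.7. In the Erbb3 window 8 shared regions ranked higher in SISC and 3 in LISC. By fold enrichment these counts were 5 and 9, and without LISC replicate 2 they were 9 and 13, so no direction is given for the gene as a whole.

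Lrig1, the receptor brake, was the richest locus, with 63 regions (gene at chr6:94604529-94700298), a number reached by 0.311% of protein-coding genes. Its window is wide, since only 11.7% of genes are at least as long. Per 100 kb of window it held 21.3 regions, beside 18.5 at Erbb3 and 17.3 at Erbb2. Lrig1 was the nearest gene for 37 of the 63. Of all 63 regions, 32 were called in all 4 libraries, 4 were LISC-only and 2 SISC-only. By library, 41, 43, 47 and 48 were called in SISC replicates 1 and 2 and LISC replicates 1 and 2. The gene body alone held 29 regions. Of 14 body regions called in all 4 libraries, 8 ranked higher in both SISC libraries and 2 in both LISC libraries, beside 30.4% and 25.4% in the series. By fold enrichment these counts were 6 and 1. Among the strongest peaks, 4 body regions were shared and the counts were 1 and 1.

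The largest body difference was at chr6:94659451-94660413, 39.7 kb inside the gene. It stood at 85.9 and 85.3 in SISC and 61.7 and 49.6 in LISC, with a −log10 q of 251, 213, 98.9 and 44.9 and a fold enrichment of 9.20, 8.25, 6.12 and 3.84. A weaker one at chr6:94636778-94637508 stood at 41.6 and 21.2 against 3.75 and 1.64. Of the 2 body regions going the other way, the one with the larger difference was chr6:94673456-94674007, with a −log10 q of 11.5 and 6.16 in SISC and 24.8 and 24.9 in LISC.

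Outside the gene, both SISC-only regions lay upstream of Lrig1, 85.4 and 93.4 kb from the start. The farther one (chr6:94793517-94794066) had a −log10 q of 49.9 and 34.3, at the 91.9 and 81.3 percentile among SISC-only regions. The strongest group-only region near any of the 7 genes lay beyond the 3′ end of Lrig1. It was the LISC-only region chr6:94538900-94539672, with a −log10 q of 131 and 97.7 and a fold enrichment of 12.6 and 8.67, at the 97.9 and 98.8 percentile of its class. Its nearest gene end belonged to Slc25a26, at 38.6 kb, and not to Lrig1. Counts of group-only regions at Lrig1 turned from 2 SISC-only and 4 LISC-only to 5 and 1 among the strongest peaks. Without LISC replicate 1 they were 2 and 11, and without LISC replicate 2 they were 3 and 7.

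**Figure D4:**
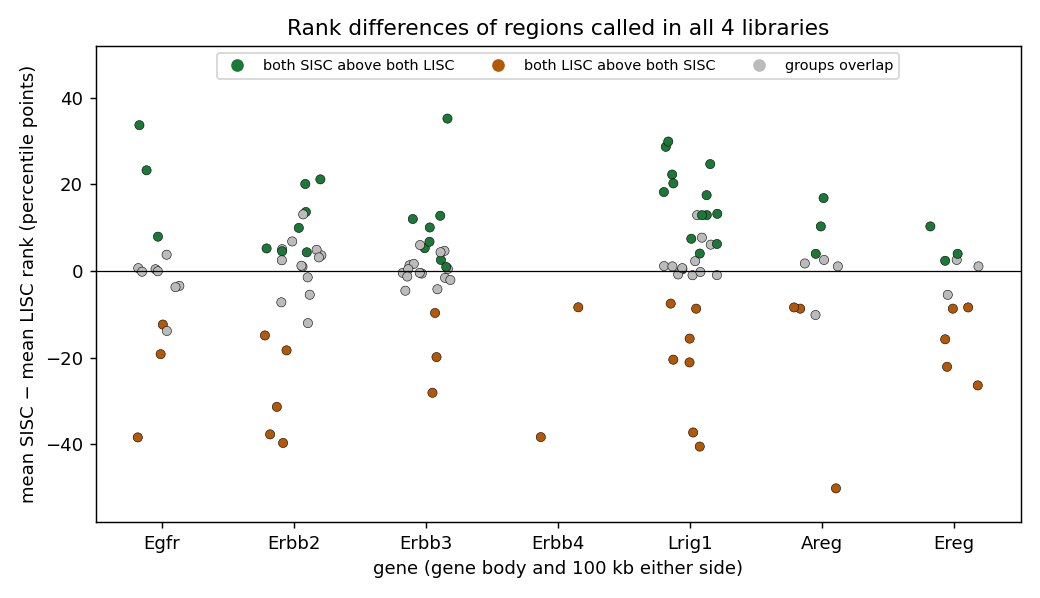
Difference of mean percentile, SISC minus LISC (y axis, percentile points), for each region called in all 4 libraries by gene (x axis); colours mark regions whose groups do not overlap. Points of both colours occur at 6 genes, the 2 Erbb4 regions are both lower in SISC, and the lowest point is the region 64.6 kb downstream of the Areg start, at -50.2.

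The ligand genes Ereg (chr5:91074617-91093649) and Areg (chr5:91139599-91148432) are neighbours, and 16 regions fell in both windows. Each gene had 25 regions, 34 in all, of which 15 were called in all 4 libraries, 3 were LISC-only and 1 was SISC-only. The gene bodies themselves held 2 regions each, and most of the open chromatin lay between and beyond the genes. Between them, chr5:91109852-91110804 stood at a −log10 q of 277, 297, 287 and 153 in SISC replicates 1 and 2 and LISC replicates 1 and 2. Closer to Ereg, chr5:91097922-91098974 stood at the 87.9 and 91.5 percentile in SISC and at 84.7 and 74.1 in LISC. The highest rank in the Ereg window was that of chr5:91038420-91039445, at 97.2, 97.8, 93.6 and 96.6, whose nearest gene was Epgn, another ligand gene of the family.

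Of 6 shared regions downstream of Areg, 2 ranked higher in LISC, 2 in SISC and 2 had overlapping groups. At 22.8 kb, chr5:91162422-91163574 stood at 82.5 and 87.1 in SISC and 91.2 and 95.1 in LISC, the highest mean rank of the Areg window. At 64.6 kb, chr5:91204227-91205153 stood at 27.7 and 29.4 in SISC and 76.4 and 81.0 in LISC, with a fold enrichment of 4.08, 3.73, 6.53 and 6.30. That was a difference in means of -50.2 points. In the other direction, chr5:91156472-91157767 at 16.9 kb stood at 74.6 and 77.7 in SISC and 74.4 and 69.9 in LISC. Likewise, chr5:91198686-91198975 at 59.1 kb stood at 33.9 and 29.7 in SISC and 18.6 and 11.3 in LISC. The stretch around 60 kb thus held shared regions of both directions. All 3 LISC-only regions of the ligand loci lay there too, 54.9 to 81.7 kb downstream of the start, each with a −log10 q below 17. Beside them, chr5:91220155-91220627 was called in SISC replicate 2 with a −log10 q of 8.38 and in LISC with 91.4 and 53.4, and was not called in SISC replicate 1. On the side towards Ereg, the only SISC-only region of these loci lay 4.33 kb upstream of Areg (chr5:91135016-91135274), with 13.5 and 13.8.

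Calls at the ligand loci also depended on LISC replicate 2, the list with the lowest fold enrichment. It alone missed 5 of the 34 regions, while 2.72% of all regions had that pattern. Among the 5 was chr5:91106203-91106740, 12.6 kb from an end of Ereg, with a −log10 q of 84.7 and 78.4 in SISC and 23.1 in LISC replicate 1. Without LISC replicate 2, group-only regions at Ereg leaned to LISC by 2 in place of leaning to SISC by 1. At Areg they leaned to SISC by 1 without SISC replicate 1 and by 2 without LISC replicate 1, in place of leaning to LISC by 2.

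Other genes of the pathway were followed through a list of 55, with each region given to the gene of the nearest start within 100 kb. Start sites of 50 were called in all 4 libraries, as were those of 62.1% of all protein-coding genes. None was SISC-only or LISC-only, beside 1.28% and 0.621% of all genes. The list held 622 regions, 40 of them SISC-only (6.43%) and 43 LISC-only (6.91%). Over all regions so assigned, 7.71% were SISC-only and 8.78% LISC-only, so the list stood slightly below the series on both sides. The split depended on the libraries, as it did in the series. Without SISC replicate 1 the list had 88 SISC-only and 50 LISC-only regions. Without SISC replicate 2 there were 58 and 68, and without LISC replicates 1 and 2 in turn 50 and 73, and 60 and 78. Over the whole series, 9555 SISC-only and 12191 LISC-only regions became 20774 and 13428 without SISC replicate 1. Leaving out the other libraries in the same order gave 13198 and 16422, 12848 and 18625, and 12137 and 18606. Of the 55 genes, with all libraries kept, 14 had more SISC-only regions, 15 had more LISC-only regions, and 20 had neither kind. How many of all genes lean either way by nearest start was not counted. The median number of regions per gene was 10 in the list and 3 over all protein-coding genes.

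The 9 other ligand genes held 83 regions, of which 3 were SISC-only (3.61%) and 8 LISC-only (9.64%). Tgfa, a ligand of Egfr, had 1 SISC-only and 3 LISC-only regions, Btc (betacellulin) 0 and 2, and Nrg2 1 and 1. The neuregulin gene Nrg1 had no region by this assignment, and the start of Nrg3 was called in some libraries only. In ligand processing, the sheddase gene Adam17 had 1 LISC-only region and Rhbdf2, which encodes an Adam17 partner, 1 SISC-only region; no start site was called at Rhbdf2. Receptor brakes held 103 regions, of which 5 were SISC-only (4.85%) and 7 LISC-only (6.80%). Lrig2, a relative of Lrig1, had 1 and 3, Cblb, a ubiquitin ligase, 0 and 2, and Socs5 2 and 1; the start of Cbl was called in no library.

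Adaptor and RAS-MAPK genes held 113 regions, of which 7 were SISC-only (6.19%) and 4 LISC-only (3.54%). The adaptor genes Gab1 and Grb2 stood at 2 and 0 and at 1 and 1, and no start was called at Map2k1. In the PI3K arm, the regulatory subunit gene Pik3r1 had 3 and 1 of these and Pik3ca 1 and 1. Feedback inhibitors had the most group-only regions, 12 and 15, and also the most regions, 118. Their shares were 10.2% SISC-only and 12.7% LISC-only, beside 7.71% and 8.78% over all regions assigned in this way. Dusp6, an ERK phosphatase gene, had 4 of each kind, and the RAS pathway inhibitor genes Spred2 and Spred1 had 2 and 3, and 0 and 4. Among target genes, Etv5, an ETS factor, had 0 and 3, whereas Myc had 3 and 0 and Ccnd1, the cyclin D1 gene, 2 and 0. These counts rest on few regions per gene and carry no test.

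The shares of the 15 possible library patterns were also compared with those of every protein-coding gene that had at least as many regions and no overlap of windows. The distance is Euclidean, with 0 for identical shares over the 4 libraries. The nearest gene was Map4k5 for Egfr (distance 0.0717, with 2 SISC-only and 9 LISC-only of 40 regions), Ppard for Erbb2 (0.0490), Capg for Erbb3 (0.0799) and Rere for Lrig1 (0.103). For the ligands it was Gm17660 for Areg (0.103) and Rab36 for Ereg (0.136). Erbb4 had fewer than 10 regions and was not compared.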

How the data were processed

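ATAC-seq was made from 50000 sorted cells per library with 10 cycles of PCR, per the labels' protocols. The genome was mm10 and the tools, per the submitters' processing notes, were bedtools, MACS2 2.2.7.1, Picard, Bowtie2 2.3.4.1 and cutadapt 3.4. Any shift for the Tn5 site is not given in the sources used here, nor are their settings. For each library the authors deposited 1 peak list, with a fold enrichment (a ratio), a −log10 p, a −log10 q, a score and a summit offset per peak. In over 99% of peaks the deposited score equals the −log10 q times 10 without its decimals. These values belong to their own library, so they rank or describe peaks within a list, and absence from a list means no call, not closed chromatin. Counts were not used here and the depth is unknown.

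Peaks overlapping by 1 bp or more were merged across the 4 lists. Genes were the 21883 protein-coding genes of the RefSeq GRCm38.p6 table (the mm10 coordinates). Starts with strand came from the RefSeq promoter table for 17491 of these, 5 of the 7 members included; for the other 4392, such as Erbb3 and Ereg, either gene end stood in. A start site was called when a region lay within 1 kb. Exons and introns were not used here. The text names all 7 members, with their start-site, highest-ranking and selected group-only regions, up to 3 genes per pathway sublist with the most group-only regions, and the gene of the most alike pattern; other genes and regions were chosen after their values were seen, and some genes of the lists are not reported here. The members and lists were chosen with earlier results of these data known. Merging, classes and ranks were tested on simulated data and merging against bedtools 2.31.1. Alternatives were each library left out, stricter and equal-length lists, 50% cover, summit windows, other spans and assignments, and ranks by fold. Python 3.11.15, numpy 2.4.6, pandas 2.3.3 and matplotlib 3.10.9 were used.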

Additional observations from a re-analysis of the deposited data

How the results depend on the processing

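No paired analysis was possible because the results come from no test and the labels do not say whether equal replicate numbers pair SISC with LISC; counts within a number are given as a description. Of 82 alternative values for the summary counts, 46 lay within 1.5 times the value reported and 36 did not, most of them where the alternative itself takes fewer peaks, fewer libraries or a narrower span. Leaving out 1 library gave 10 to 18 SISC-only, 26 to 34 LISC-only and 121 to 124 shared regions at the members, 49 to 60 shared regions ranked higher in SISC and 35 to 44 in LISC (41.3% to 42.8% and 34.9% to 36.5% in the series, since fewer libraries overlap less often), and 50 to 88 SISC-only and 50 to 78 LISC-only regions for the pathway list. The strongest 41721 peaks of each list gave 9 SISC-only, 6 LISC-only and 62 shared regions, 15 and 7 ranked regions (SISC, LISC), and 22 and 23 list regions; 6 of 7 start sites were then called in all 4 libraries. SISC-only regions numbered 9 at 50% cover and 9 with summit windows, and 16 shared regions ranked higher in LISC at 50% cover. With summit windows 6 of 7 start sites were called in all 4 libraries. SISC-only, LISC-only and shared regions were 2, 11 and 47 within 10 kb, 3, 8 and 49 by nearest start, and 1, 10 and 36 in the gene bodies; within 50 kb SISC-only regions numbered 3. List genes by body and 10 kb gave 19 and 26. The net count (SISC-only minus LISC-only) changed sign for 11 of 84 member values. Among the strongest peaks it was 2 at Egfr, -2 at Erbb2, 1 at Erbb3 and 4 at Lrig1. At Areg it was 1 at equal list lengths and 1 within 10 kb, and at Lrig1 1 by nearest start. Over the left-out libraries it ran from -3 to 2 at Areg, from -1 to 3 at Erbb2 and from -2 to 6 at Ereg. The cause was not tested. At Lrig1 it was -9 without LISC replicate 1. At Erbb4 it was 0 by nearest start, since its LISC-only regions lie over 100 kb from any start. A LISC-only or SISC-only region stays so by definition when a library is left out, so these counts can only rise. Unknown read depth limits every absence of a call.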

Other observations

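Most regions in the gene-dense Erbb2 and Erbb3 windows had the start or end of a neighbouring gene as the nearest. This also held in the Egfr and Ereg windows, and it describes distance only. In the Erbb2 window 5 of 39 regions had Erbb2 as the nearest start, and in the Erbb3 window 9 of 41 had Erbb3. For Egfr this was 14 of 37 and for Ereg 7 of 25. However, 19 of the 37 regions in the Egfr window lay inside the Egfr gene body. The neighbours in the Ereg window included Areg and Epgn, which are ligand genes too. The highest rank at Erbb2 was that of the region over the start of Mien1 (chr11:98438116-98439224), at the 97.0 and 99.0 percentile in SISC and 98.1 and 95.5 in LISC. Grb7, which encodes an adaptor of Erbb2, had a region over its start (chr11:98445337-98447514) at 86.1 and 88.8 in SISC and 85.3 and 80.3 in LISC. At Erbb3 the highest rank was that of chr10:128565199-128566802, next to Pa2g4, whose product is known to bind the Erbb3 protein, at 97.7 to 99.3 over the 4 libraries. Beyond Erbb3 by 24.5 kb, with Rps26 as the nearest gene, chr10:128614113-128614924 stood at 56.7 and 56.5 in SISC and at 84.6 and 84.7 in LISC.

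Shared regions of the 7 loci had a median width of 934.5 bp, and SISC-only and LISC-only regions 282 and 377 bp. Over the series these medians were 888, 457 and 484 bp. The 22 LISC-only regions of the loci had a median −log10 q of 11.3 and 10.4 in LISC replicates 1 and 2, beside 18.7 and 14.5 over all LISC-only regions.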
